A study of Ginkgo biloba with 16 samples.

Results

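Tree-to-tree spread of gene expression was measured in the vascular cambium of *Ginkgo biloba* trees of 3 age groups. The spread of a gene was the standard deviation (SD) of log2(FPKM + 1) over the 3 RNA-seq libraries of a group, where FPKM is the deposited number of fragments scaled to the length of the transcript and to the mapped fragments of the library. A difference of 1 on this scale is a 2-fold difference in FPKM + 1. Of 43911 gene entries, the 21527 with a mean FPKM of 1 or more over the 9 libraries were measured, and this rule did not use the spread itself. At the edge of the rule, Novel01574 with a mean of 1.0006 FPKM was kept and Gb_33697 with a mean of 0.9997 FPKM was left out.

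The groups were VC20, from trees of 15, 20 and 22 y, VC200, from trees of 193, 211 and 236 y, and VC600, from trees of 538, 553 and 667 y. In each group the trees carry the letters A, B and C in that order of age. All were untreated female trees of 1 site, and the cambium was cut from trunk pieces as tangential frozen sections at breast height. Each library came from 1 tree and no tree was sequenced more than once, so differences between trees and differences between libraries cannot be told apart. Ages of the older trees were estimated from trunk diameter and ring width, as the innermost rings could not be reached.

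The vascular cambium is a thin cylinder of dividing cells that gives rise to xylem on its inner side and phloem on its outer side. In *Arabidopsis* and poplar, the homeobox gene WOX4 keeps cambial cells dividing, and the class III homeodomain-leucine zipper (HD-ZIP III) genes pattern the cambium and its xylem derivatives. A section of a few cells in depth can hold different shares of cambial, xylem and phloem cells, and in such bulk samples fewer cells of a type and less RNA per cell cannot be told apart.

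The libraries held between 15732414 and 18811767 fragments, as implied by the smallest steps in their FPKM values. The tree of 236 y, VC200C, stood apart from the other libraries. Its Spearman correlation with them across the 21527 genes was 0.788 to 0.847, whereas the lowest correlation among the other 8 libraries was 0.910. It was the lowest of the 9 libraries in all 7 markers of the cambium, the 2 WOX4 genes and the 5 HD-ZIP III genes. Their summed level was 27.6 FPKM in VC200C, 72.9 and 160.7 FPKM in VC200A and VC200B, and 97.2 to 219.9 FPKM in the 6 trees of VC20 and VC600. The WOX4 gene *Gb_12565* was listed at 0 in VC200C. For this reason the spreads over all genes and over gene lists are also given for VC200A and VC200B alone.

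Over all genes, the spread was widest in VC200. The median SD was 0.23 in VC20, 0.33 in VC200 and 0.26 in VC600. The quartiles were 0.14 and 0.38 for VC20, 0.18 and 0.56 for VC200, and 0.15 and 0.42 for VC600. An SD of 1 or more was found for 387 genes in VC20 (1.8% of the genes measured), 2134 genes in VC200 (9.91%) and 745 genes in VC600 (3.46%). Most genes varied little between trees of the same age group. For 18821 genes (87.4%) the SD was under 1 in every group, and for 5714 genes (26.5%) it was 0.3 or less in every group.

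The median SD of VC200 was 1.40 times that of VC20, and the SD was larger in VC200 for 13902 genes (64.6%). The median SD of VC600 was 1.10 times that of VC20, with a larger SD in VC600 for 11894 genes (55.3%). Set against VC200, the median SD of VC600 was 0.784 times as large, with a larger SD in VC600 for 8491 genes (39.4%). The largest of the 3 SDs fell in VC20 for 4924 genes (22.9%), in VC200 for 10382 genes (48.2%) and in VC600 for 6221 genes (28.9%). Across genes, the SDs of any 2 groups were related only loosely (Spearman 0.30 to 0.33 over 21527 genes, a description, since genes share the same libraries).

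**Figure D1:**
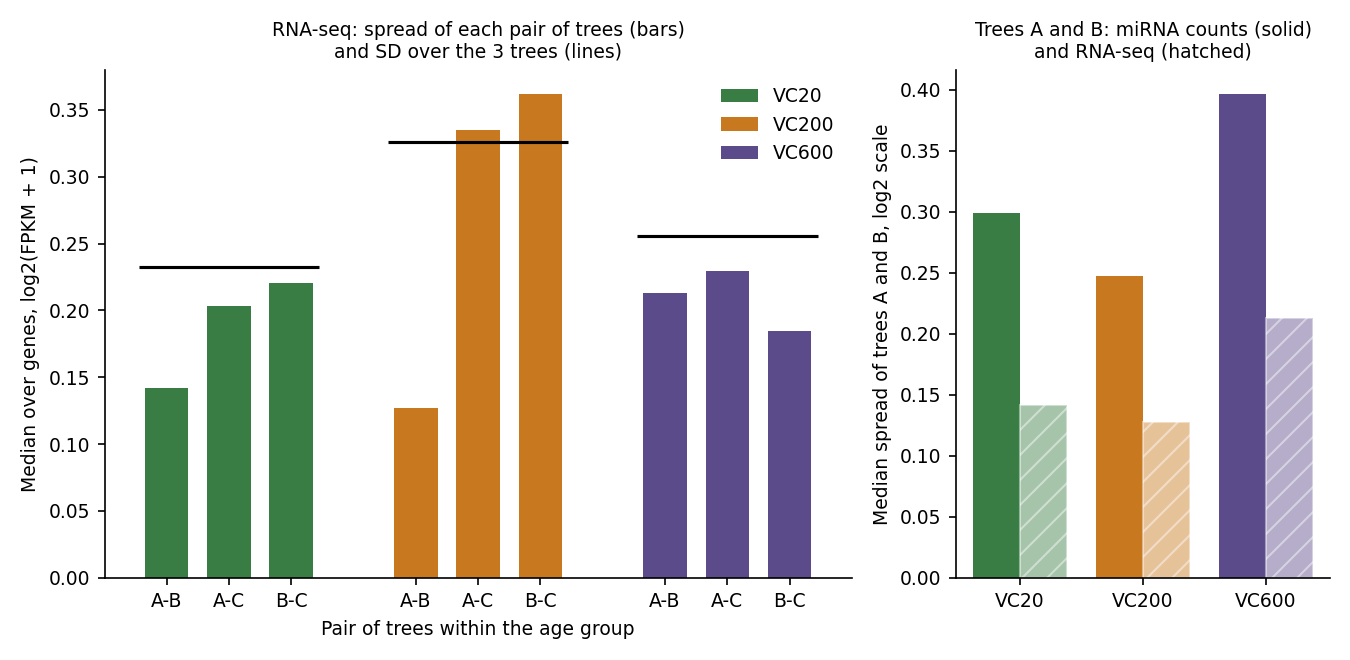
Tree-to-tree spread by pair of trees. The y axis is the median over genes of the spread of 2 trees, the absolute difference of log2(FPKM + 1) divided by the square root of 2, as bars for the 9 pairs of RNA-seq trees, with black lines for the median SD over the 3 trees of a group (left). On the right, the same measure of trees A and B is drawn for sRNA entries (solid bars) and for genes (hatched bars). The pair VC200A and VC200B had the smallest median of the 9 pairs (0.13), and the pairs with VC200C had the largest (0.34 and 0.36).

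The pairs of trees showed where the spread of VC200 lay. For 2 trees, the spread was taken as the absolute difference divided by the square root of 2, which is the SD of 2 values. For normal values of equal spread, the median SD of 2 values is 0.81 times that of 3 values. Pair spreads set beside SDs over 3 trees, here and in the gene lists below, are not scaled for this. In VC20, the median over genes was 0.14 for trees A and B, 0.20 for A and C and 0.22 for B and C. In VC200, it was 0.13 for A and B, 0.34 for A and C and 0.36 for B and C. In VC600, it was 0.21 for A and B, 0.23 for A and C and 0.18 for B and C. VC200 therefore contained both the closest pair of trees of all 9 pairs and the 2 most distant ones.

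The same order was found when genes that differed 2-fold or more between 2 trees were counted. Between VC200A and VC200B, 730 genes (3.39%) differed by that much, compared with 4427 genes (20.6%) between VC200C and VC200A and 5036 genes (23.4%) between VC200C and VC200B. In VC20 and VC600, the 6 pairs ranged from 4.01% to 9.04% of genes. Of the 2134 genes with an SD of 1 or more in VC200, 1488 (69.7%) had a spread of 0.5 or less between VC200A and VC200B.

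Without VC200C, the spread of VC200 changed from the widest of the 3 groups to the narrowest. With the SD over 2 trees brought to the scale of 3, the median SD of VC200 was 0.676 times that of VC20, and the median SD of VC600 was 1.62 times that of VC200. The ratio of VC600 to VC20 does not use VC200C and stayed at 1.10, but it was reversed when VC20A (0.938) or VC600A (0.981) was left out. With only trees A and B in each group, the ratios were 0.897 for VC200 to VC20, 1.5 for VC600 to VC20 and 1.67 for VC600 to VC200.

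To compare the groups over trees rather than genes, each tree was given a distance, the median over genes of its absolute difference from the mean of the other 2 trees of its group, scaled to an SD. In VC20 the distances of trees A, B and C were 0.16, 0.19 and 0.23, in VC200 they were 0.21, 0.24 and 0.40, and in VC600 they were 0.23, 0.19 and 0.21. The mean distance was 0.284 ± 0.10 in VC200 and 0.193 ± 0.037 in VC20 (SD, n = 3 trees each), a difference of 0.09 (exact permutation test, two-sided, p = 0.2, adjusted over 3 comparisons p = 0.45). It was 0.210 ± 0.021 in VC600, which differed from VC20 by 0.02 (exact permutation test, p = 0.7, adjusted p = 0.7) and from VC200 by -0.07 (exact permutation test, p = 0.3, adjusted p = 0.45). With 3 trees against 3, the smallest p that this exact test can give is 0.1, and the 3 distances of a group share trees. Thus no difference in spread between age groups was shown at the level of trees. Without VC200C the difference between VC200 and VC20 was -0.07 and that between VC600 and VC200 was 0.08.

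Calls made gene by gene depended on how the test was built. In a Levene-type fit with limma on the absolute deviations from the group mean, VC200 had a larger spread than VC20 for 1629 genes (7.57%) and a smaller one for 271 genes (1.26%) at an adjusted p under 0.05. VC600 had a larger spread than VC20 for 113 genes (0.525%) and a smaller one for 54 genes (0.251%). Against VC200, VC600 had a larger spread for 423 genes (1.96%) and a smaller one for 1507 genes (7%). These counts are given as a description, because with 3 trees a group this test returned small p-values too often in data made with equal spread. A variance-ratio F test on the same genes, chosen after the first results were seen, called 3, 0 and 4 genes in these comparisons after adjustment, and 1893, 1302 and 1694 genes at an unadjusted p under 0.05. Leaving out 1 tree makes both absolute deviations of its group equal by construction, so the fit used 1 value for that group. It then had no measure of variation within that group, and the direction of the calls changed with the tree. Without VC20A, VC20B or VC20C, a larger spread in VC200 than in VC20 was called for 0 genes and a smaller one for 208, 180 and 45. Without VC200C, a larger one was called for 13 genes and a smaller one for 0. No statement on spread is based on these calls.

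The largest differences in that fit belonged to genes raised in VC200C alone. Of the 5 genes with the largest difference between VC200 and VC20, 4 lie next to each other or close by on 1 scaffold and are described below. The fifth, *Gb_36622*, had 0.17, 0.17 and 0.19 FPKM in VC20, 0.49, 0.17 and 471.4 FPKM in VC200, and 3.55, 0 and 0.27 FPKM in VC600. It passed the level rule through VC200C, so no test is given for it.

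VC200 had the widest spread at every level of expression. In each of 7 classes of mean FPKM, from 1 to 2 up to 100 or more, VC200 had the largest median SD, between 0.29 and 0.37, compared with 0.20 to 0.28 in VC20 and 0.23 to 0.30 in VC600. VC200A and VC200B had the smallest spread of the 9 pairs in every class. The SD that counting of fragments alone would give had a median of 0.086 for VC20, 0.089 for VC200 and 0.089 for VC600. With the counting variance subtracted on the scale of log2 fragments, over 20886 genes, the median SD of VC200 was 1.52 times that of VC20.

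**Figure D2:**
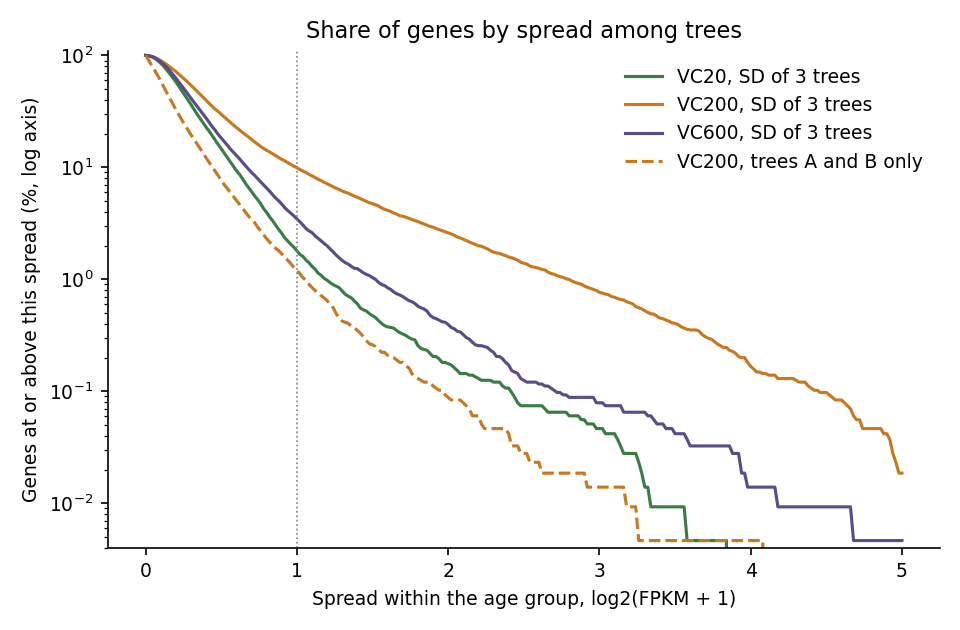
Share of genes at or above each spread. The x axis is the SD of log2(FPKM + 1) over the 3 trees of a group, and the y axis (log scale) is the percentage of the 21527 genes with that SD or a larger one, for VC20, VC200 and VC600, with trees A and B of VC200 as a dashed line. The dashed line is the SD of 2 values and is not scaled to that of 3. At an SD of 1 (dotted line), VC200 lies at 9.91%, above VC600 at 3.46% and VC20 at 1.8%.

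Genes variable within 1 group were taken as those with an SD of 1 or more in that group and 0.5 or less in both others. This was met by 53 genes in VC20 (0.246%), 838 genes in VC200 (3.89%) and 97 genes in VC600 (0.451%). As the values that choose these genes are the values described, no test is given for them. At the edges, *Gb_00923* (SD 1.002 in VC20), *Gb_25082* (1.00002 in VC200) and *Gb_00872* (1.014 in VC600) were inside, and *Gb_03071* (0.996 in VC20), *Gb_02773* (0.9995 in VC200) and *Gb_20079* (0.9998 in VC600) were outside. A mean of 1 FPKM or more in every group was found for 33 of the 53 genes, 530 of the 838 and 69 of the 97. The others passed the level rule only through the trees in which they were high. Supplementary sheets of the study, most of which list genes that differed between age groups in these same libraries, name a protein for 10 of the 53 (18.9%), 98 of the 838 (11.7%) and 28 of the 97 (28.9%), compared with 1765 of all genes measured (8.2%).

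In VC200, almost all of these genes were set apart by 1 tree. VC200C was the tree farthest from the other 2 for 812 of the 838 genes (96.9%), as against 9 genes for VC200A and 17 for VC200B. It was the high tree in 623 genes and the low tree in 189, and in 793 genes its value lay outside the range of all other 8 trees. In VC20, the farthest tree was A for 21 genes, B for 11 and C for 21. In VC600, it was A for 38 genes, B for 32 and C for 27, so no tree of these groups dominated its list. When only trees A and B of every group were used, 127 genes met the rule for VC20, 71 for VC200 and 408 for VC600.

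**Figure D3:**
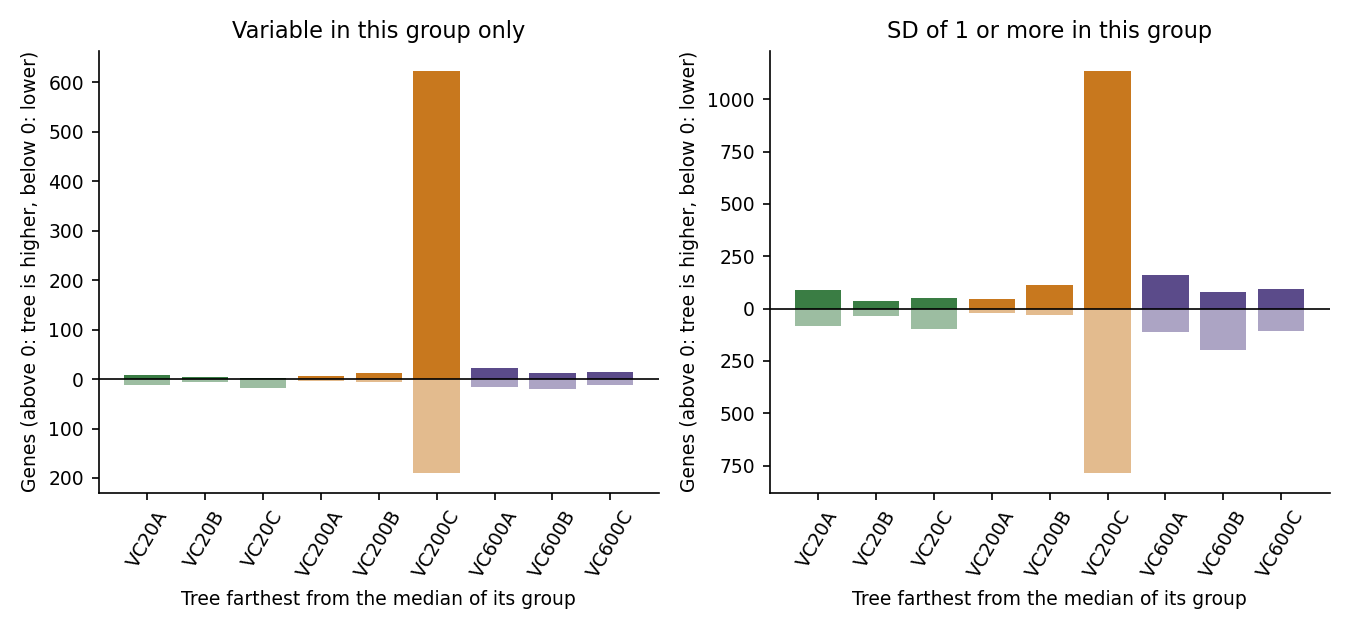
Number of genes for which each tree was the farthest from the other 2 of its group, drawn upward where that tree was higher and downward where it was lower. The left panel holds the genes variable in 1 group only and the right panel all genes with an SD of 1 or more in the group. VC200C accounts for 812 of 838 genes on the left and 1919 of 2134 genes on the right.

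Lower values in VC200C were common among all genes, although the genes that varied only in VC200 were mostly higher in it. Over the 21527 genes, VC200C lay 1 or more above the mean of VC200A and VC200B on the log2 scale for 1898 genes (8.82%) and 1 or more below it for 2668 genes (12.4%). It was the lowest of the 9 trees for 7872 genes (36.6%) and the highest for 2875 genes (13.4%). Among the 1919 genes of SD 1 or more that it set apart in VC200, 1136 were higher in it and 783 were lower. The median FPKM was also lowest in VC200C, 9.45 against 9.90 to 11.3 in the other trees. How much this shift adds to the counts of low genes was not tested. The median SD of VC200 relative to VC20 was 1.30 with centred library medians and 1.31 with quantile normalization, against 1.40 without them.

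The genes with the widest spread in VC200 alone were nearly silent in the other 8 trees. On scaffold10470, 8 adjacent genes, *Gb_01210* to *Gb_01217* (positions 139406 to 599161 of the assembly used by the authors, + strand), belonged to this list. *Gb_01217* (598562 to 599161) had 0, 0 and 0.62 FPKM in VC20, 0, 0 and 573.4 FPKM in VC200, and 0, 0.32 and 0 FPKM in VC600, with an SD of 5.29 in VC200. *Gb_01210* (139406 to 140038) had 0, 0 and 0.097 FPKM in VC20, 0.084, 0 and 479.6 FPKM in VC200, and 0.090, 0.50 and 0.28 FPKM in VC600. Both were thus high in VC200C and close to 0 elsewhere.

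A ninth entry of that scaffold, *Gb_01221* (934715 to 935290, - strand), had 586.3 FPKM in VC200C and at most 2.98 FPKM in the other trees. Its SD of 0.97 in VC600 kept it out of the list. Of the 17 entries on the scaffold, these 9 had 104.6 to 586.3 FPKM in VC200C, summing to 0.311% of all FPKM of that library. Their lengths were 558 to 633 bases, and for all 9 the length equalled the distance between start and end, so that the deposited models have no introns. No source used here names a protein for them, and near-identical copies among them could have shared reads.

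A neighbour on the scaffold that was also on the list was found for 4 of the 53 genes in VC20 (7.55%), 127 of the 838 genes in VC200 (15.2%) and 2 of the 97 genes in VC600 (2.06%). As a longer list holds more neighbours, these shares are not compared between groups. Apart from scaffold10470, the runs of 3 or more genes were 5 genes on scaffold1431, 3 genes on scaffold2528 and 3 genes on scaffold4617, and VC200C was the high tree in each gene of these runs.

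Among genes with a protein name, those that varied in VC200 alone included regulators of hormone and stress responses. *Gb_17432*, annotated as TIFY 9, a member of a family that holds repressors of jasmonate signalling, was listed at 0 in every tree of VC20, had 0, 0 and 188.4 FPKM in VC200, and 0, 0 and 0.13 FPKM in VC600. *Gb_36010*, annotated as ethylene-responsive transcription factor 2, had 0.37, 0.27 and 0.18 FPKM in VC20, 0.10, 0 and 124.4 FPKM in VC200, and 0.11, 0.43 and 0.057 FPKM in VC600. *Gb_10422*, annotated as the zinc finger protein ZAT4, reached 85.8 FPKM in VC200C and did not exceed 0.87 FPKM in any other tree. All 3 are transcriptional regulators with a single high tree.

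*Gb_07367*, annotated as the 9-*cis*-epoxycarotenoid dioxygenase NCED1, an enzyme of abscisic acid synthesis, had 0.12 to 0.44 FPKM in VC20, 0.43, 3.54 and 53.6 FPKM in VC200, and 0.31 to 0.71 FPKM in VC600. *Gb_00489*, annotated as EXORDIUM-like 2, had 2.96, 6.11 and 4.66 FPKM in VC20, 0.64, 0.73 and 112.1 FPKM in VC200, and 1.20, 1.98 and 0.96 FPKM in VC600. The disease-resistance genes *Gb_22859*, an LRR (leucine-rich repeat) family member, and *Gb_20740*, annotated as TMV resistance protein N, had 31.8 and 18.6 FPKM in VC200C and 0 FPKM in VC200A and VC200B. These genes were likewise high in VC200C only.

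The genes that varied in VC20 alone were short. Their median length was 582 bases, compared with 1118 bases for VC200, 1043 bases for VC600 and 1143 bases for all genes measured. Entries whose names do not start with Gb_, such as *Novel00666*, which are gene models outside the genome annotation, made up 22.6% of them, against 5.97% in VC200, 15.5% in VC600 and 6.81% of all genes. *Novel00666* had 0.078, 18.8 and 19.5 FPKM in VC20 and was listed at 0 in all 6 older trees, and *Novel00668* on the same scaffold (scaffold192) had 0, 9.65 and 7.74 FPKM in VC20 and was also listed at 0 in the older trees.

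Of the named proteins, *Gb_29828*, a 17.4 kDa class I heat shock protein that as a small chaperone binds unfolded proteins, had 3.39, 51.2 and 50.7 FPKM in VC20, 57.6, 70.0 and 96.6 FPKM in VC200, and 2.65, 2.40 and 3.18 FPKM in VC600. The low tree of VC20 was thus close to VC600 and its other 2 trees were closer to VC200. *Gb_04486*, annotated as glutathione S-transferase F13, a detoxifying enzyme, had 41.5, 2.64 and 8.71 FPKM in VC20, 1.88, 1.88 and 1.04 FPKM in VC200, and 0.35, 0.20 and 0.92 FPKM in VC600. *Gb_13586*, annotated as STAY-GREEN, which acts in chlorophyll breakdown, had 0.82, 16.1 and 6.21 FPKM in VC20, 0 in each tree of VC200, and 0.67, 0 and 0 FPKM in VC600.

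*Gb_22345*, annotated as xyloglucan endotransglucosylase/hydrolase 9, which remodels the xyloglucan of growing walls, had 2.56, 6.71 and 22.3 FPKM in VC20 and at most 0.67 FPKM in the older trees. *Gb_36967*, annotated as the serine/threonine-protein kinase HT1, had 19.1, 20.1 and 82.8 FPKM in VC20, 34.0, 29.2 and 33.2 FPKM in VC200, and 79.8, 96.2 and 68.6 FPKM in VC600. In these examples the tree farthest from the median of VC20 was A or C, high in some genes and low in others. Among all genes variable in VC20 alone, it was B for 11.

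In VC600, the genes variable in this group alone were also set apart by different trees. *Gb_11181*, which has no protein name, had 2.43, 3.24 and 2.57 FPKM in VC20, 7.91, 8.76 and 6.42 FPKM in VC200, and 535.4, 0.57 and 1.60 FPKM in VC600. *Gb_39543*, also unnamed, had 69.4, 79.2 and 113.3 FPKM in VC20, 161.6, 130.3 and 118.8 FPKM in VC200, and 1.30, 1.62 and 84.6 FPKM in VC600. It was thus low in trees A and B of the oldest group and had 69.4 to 161.6 FPKM in the other 7 trees.

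Named genes of this kind included enzymes of redox balance. *Gb_01202*, annotated as the glutathione S-transferase DHAR3, which recycles ascorbate, had 41.8, 64.5 and 68.4 FPKM in VC20, 18.8, 31.9 and 16 FPKM in VC200, and 375.8, 21.3 and 209.3 FPKM in VC600. *Gb_36279*, annotated as 1-Cys peroxiredoxin A, had 3.80 to 6.77 FPKM in VC20, 0 to 0.17 FPKM in VC200, and 50.5, 3.01 and 3.21 FPKM in VC600. VC600A was the highest tree in both genes.

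*Gb_21559*, annotated as a riboflavin biosynthesis protein, was listed at 0 in VC20, had 7.76, 7.44 and 5.51 FPKM in VC200, and 14.4, 0 and 9.63 FPKM in VC600. *Gb_11201*, annotated as cyclin-U2-2, had 32.6, 24.2 and 30 FPKM in VC20, 1.02, 0.48 and 1.72 FPKM in VC200, and 14.2, 12.6 and 0.73 FPKM in VC600. VC600C thus lay within the range of VC200 for this cyclin. *Gb_22516*, annotated as serine carboxypeptidase 24, was listed at 0 in VC600A and VC600C and had 10.1 FPKM in VC600B, and no other tree exceeded 0.024 FPKM.

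**Figure D4:**
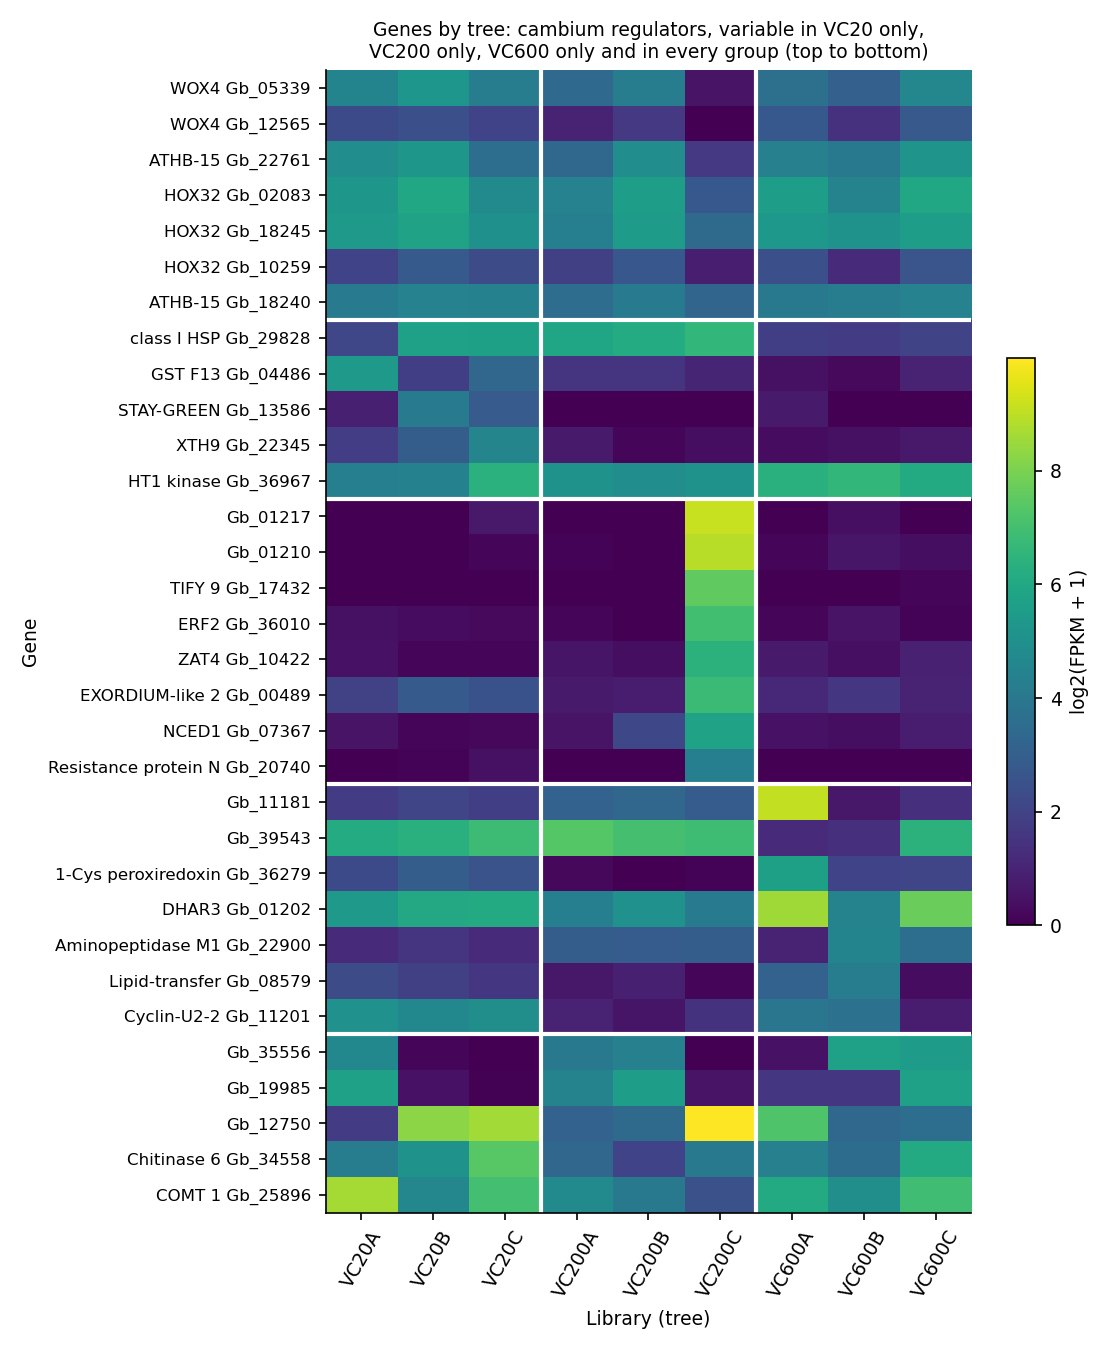
Levels of 32 named genes in the 9 trees. Rows are genes (cambium regulators, genes variable in VC20, VC200 or VC600 only, and genes variable in every group), columns are trees in order of age, and colour is log2(FPKM + 1). The rows variable in VC200 only are bright in VC200C alone, those variable in VC20 or VC600 only are set apart by different trees, and the cambium regulators are darkest in VC200C.

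A further 69 genes (0.321%) had an SD of 1 or more in every group. *Gb_12750* had 2.40, 307.6 and 385.8 FPKM in VC20, 7.86, 10 and 1019 FPKM in VC200, and 148.8, 9.09 and 11.3 FPKM in VC600, so that high and low trees occurred at every age. *Gb_19985* had 51.5, 0.41 and 0.036 FPKM in VC20, 21.0, 47.3 and 0.45 FPKM in VC200, and 1.96, 1.99 and 51.5 FPKM in VC600. Among these genes, 13 have names of the *Novel00666* kind and only 3 have a protein name in the sheets used.

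Of those 3, *Gb_25896* is annotated as caffeic acid 3-O-methyltransferase 1, an enzyme of lignin precursor synthesis, and had 398.6, 23.7 and 126.5 FPKM in VC20, 25.9, 15.7 and 4.51 FPKM in VC200, and 67.5, 29.4 and 120.4 FPKM in VC600. *Gb_34558*, annotated as chitinase 6, had 17.4, 33.0 and 169.9 FPKM in VC20, 8.97, 2.99 and 15.5 FPKM in VC200, and 19.2, 10.6 and 68.7 FPKM in VC600, with tree C the highest in every group. The third, *Novel00152*, annotated as a probable aldo-keto reductase, had 431.6, 109.3 and 76.2 FPKM in VC20, 3.45, 16.9 and 2.81 FPKM in VC200, and 60.8, 273.9 and 66.9 FPKM in VC600.

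Regulators of the cambium varied more between trees than most genes did. Of the 7 cambium markers, all had their largest SD in VC200, compared with 48.2% of all genes, and 4 had an SD of 1 or more there. Their median spread was 0.58 between VC200A and VC200B. *Gb_05339*, annotated as WOX4, had 21.5, 37.2 and 17.2 FPKM in VC20, 9.62, 17.3 and 0.45 FPKM in VC200, and 12, 7.29 and 23.7 FPKM in VC600. *Gb_22761*, an HD-ZIP III gene annotated as ATHB-15, had 28.5, 38.3 and 11.3 FPKM in VC20, 9.37, 29.1 and 2.15 FPKM in VC200, and 19.7, 15.3 and 35.4 FPKM in VC600.

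The 5 HD-ZIP III genes had a median SD in VC20, VC200 and VC600 of 0.42, 1.03 and 0.60, compared with 0.23, 0.33 and 0.26 for all genes. For this list, VC200A and VC200B also differed by more than the trees of most pairs, with a median pair spread of 0.79, against 0.13 over all genes. The HD-ZIP III genes were thus an exception to the closeness of these 2 trees, but not the only one. The median pair spread of VC200A and VC200B was 0.51 for the 2 WOX4 genes and 1.08 for 3 cytokinin genes.

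Of 13 cell division genes, named by the study for their difference between young and old trees in these libraries, VC200C was the lowest tree in 8, and it was the lowest for 36.6% of all genes. Their median SD was 0.30 in VC20, 0.60 in VC200 and 0.66 in VC600. The median spread between VC200A and VC200B was 0.29. An SD of 1 or more was found for 1 gene in VC20 (7.69%), 1 gene in VC200 (7.69%) and 3 genes in VC600 (23.1%), compared with 1.8%, 9.91% and 3.46% of all genes. *Gb_38629*, annotated as the mitotic cyclin-dependent kinase CDKB1-1, had 11.9, 22.6 and 17.7 FPKM in VC20, 7.16, 9.85 and 4.30 FPKM in VC200, and 9.05, 6.33 and 17.0 FPKM in VC600. In a wider list of 34 genes of microtubules and mitosis, the median SD was 0.27 in VC20, 0.31 in VC200 and 0.29 in VC600. The median pair spread between VC200A and VC200B was 0.15. No gene reached an SD of 1 in VC20 or VC200.

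The wall expansion list, which also includes cellulose synthases of secondary walls, had its largest median SD in VC600. The list held 16 expansins, xyloglucan endotransglucosylase/hydrolases and cellulose synthases, found by protein name in sheets of genes that differed between the age groups, so that their levels differ between groups by choice. Their median SD was 0.42 in VC20, 0.74 in VC200 and 1.01 in VC600. The median pair spread between VC200A and VC200B, not scaled to 3 trees, was 0.42. The largest SD fell in VC600 for 11 of 16 genes (68.8%), compared with 28.9% of all genes. An SD of 1 or more in VC600 was found for 8 of them (50%), compared with 3.46% of all genes. Some members were near 0 in VC200, such as *Gb_07444* with 0.70, 1.66 and 0.020 FPKM, which bounds their SD in that group.

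*Gb_01499*, annotated as expansin-A1, which loosens walls, had 6.95, 18.1 and 11.7 FPKM in VC20, 3.29, 1.79 and 0.33 FPKM in VC200, and 13.4, 0.17 and 4.65 FPKM in VC600. *Gb_19528*, annotated as expansin-A4, had 4.90, 0.14 and 7.28 FPKM in VC600 and at most 1.02 FPKM in any other tree. *Gb_22329*, annotated as xyloglucan endotransglucosylase/hydrolase 9, had 9.88, 19.9 and 27.9 FPKM in VC20, 4.83, 4.92 and 0.92 FPKM in VC200, and 4.58, 6.5 and 27.5 FPKM in VC600. VC600B and VC600C, the closest pair of that group over all genes, had a median pair spread of 1.12 for this list.

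Among secondary wall genes, the cellulose synthases named here were lowest in tree C of every group. The cellulose synthase *Gb_07444*, annotated as CESA4, had 18.8, 21.0 and 6.51 FPKM in VC20, 0.70, 1.66 and 0.020 FPKM in VC200, and 9.36, 10.6 and 0.99 FPKM in VC600. The cellulose synthase *Gb_17419* (CESA9) had 26.1, 29.5 and 8.51 FPKM in VC20, 1.19, 3.04 and 0.059 FPKM in VC200, and 13.4, 18.3 and 4.16 FPKM in VC600. Over the 14 xylem markers measured, cellulose synthases and laccases by protein name, the summed level of trees A, B and C was 236.9, 303.6 and 106.8 FPKM in VC20, 28.5, 38.9 and 12.3 FPKM in VC200, and 133.6, 166.0 and 103.0 FPKM in VC600. The laccases did not set tree C apart gene by gene. Their median pair spread in VC20 was 0.38 for A and C, 0.77 for A and B and 1.04 for B and C. In VC600 it was 0.28, 0.91 and 1.12 for the same pairs. No label gives anything that the C trees share, and the letters follow the order of age within a group.

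The 8 laccases, enzymes that couple lignin precursors, had a median SD in VC20, VC200 and VC600 of 0.89, 0.19 and 0.89, and 0.07 between VC200A and VC200B. Their summed levels were 99.0, 151.9 and 44.2 FPKM in VC20, 3.15, 4.13 and 0.10 FPKM in VC200, and 68.3, 76.7 and 56.8 FPKM in VC600, so that the SD of log2(FPKM + 1) in VC200 is bounded by levels near 0. *Novel01091*, annotated as a laccase, had 27.9, 21.5 and 6.75 FPKM in VC20, 0.79, 0.85 and 0 FPKM in VC200, and 3.93, 14.8 and 0 FPKM in VC600.

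The summed level of 29 heat shock proteins and chaperones was 10309.5 FPKM in VC200C and 6262.8 FPKM in VC600A, compared with 2689 to 4894 FPKM in the other 7 trees. Not all members took part. The sum in VC200C lay 5565.2 FPKM above the mean of VC200A and VC200B, and *Gb_40446*, *Gb_13755* and *Gb_08978* alone lay 1933.2, 1228.3 and 1001.3 FPKM above it. VC200C lay 1 or more above the mean of VC200A and VC200B for 10 genes (34.5%) and 1 or more below it for 4 (13.8%), compared with 8.82% and 12.4% of all genes, and VC200C was the lowest of the 9 trees for 6. VC600A lay 1 or more above the mean of VC600B and VC600C for 9 genes (31%) and 1 or more below it for 1 (3.45%), compared with 3.76% and 3.02% of all genes. The median SD of the list was 0.27 in VC20, 0.55 in VC200 and 0.43 in VC600. The median pair spread between VC200A and VC200B was 0.13. An SD of 1 or more was found for 1 (3.45%), 8 (27.6%) and 8 (27.6%) genes in these groups. This list was found by protein name in sheets that mostly hold genes differing between the age groups in these libraries. All genes are thus not a like background for its shares. *Gb_13755*, annotated as a 25.3 kDa chloroplast heat shock protein, had 190.2, 373.4 and 218.8 FPKM in VC20, 527.8, 542.7 and 1764 FPKM in VC200, and 1383, 369.8 and 342.0 FPKM in VC600. *Gb_01039*, a small chloroplast heat shock protein, had 123.5 FPKM in VC200C but 15.3 FPKM in VC600A, against 4.57 to 21.7 FPKM in the other 7 trees, so the 2 trees did not share every gene.

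A pair of endochitinase genes stood out in VC600A. The summed level of 21 chitinases, thaumatin-like proteins, glucanases and related genes was 5651 FPKM in VC600A and 2139 to 3182 FPKM in the other 8 trees. Without *Gb_07503* and *Gb_07504*, the other 19 genes summed to 2466 FPKM in VC600A, within the 2129 to 3107 FPKM of the other trees. *Gb_07504*, annotated as an endochitinase, which cuts the chitin of fungal walls, had 1.21, 12.5 and 17.4 FPKM in VC20, 84.5, 49.7 and 61.7 FPKM in VC200, and 2016, 22.2 and 51.1 FPKM in VC600. Its neighbour *Gb_07503*, with the same annotation, had 8.31, 5.54 and 6.76 FPKM in VC20, 100.6, 26.0 and 345.2 FPKM in VC200, and 1169.7, 30.2 and 91.8 FPKM in VC600. Both lie on scaffold1478, and as they may share sequence their individual levels are uncertain.

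Of 220 NBS-LRR genes, which encode intracellular immune receptors, 128 passed the level rule. Their median SD was 0.29 in VC20, 0.65 in VC200 and 0.39 in VC600, whereas the median spread between VC200A and VC200B was 0.19. An SD of 1 or more was found for 8 (6.25%), 39 (30.5%) and 12 (9.38%) of them, compared with 1.8%, 9.91% and 3.46% of all genes. VC200C lay 1 or more above the mean of VC200A and VC200B for 30 of these genes and 1 or more below it for 36 (8.82% and 12.4% of all genes). Their summed level was 1665 FPKM in VC200C and 1565 to 2092 FPKM in the other trees, so single genes varied while the sum did not leave the range.

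*Gb_26621*, a TIR-NBS-LRR gene, had 11.8, 0.16 and 29.1 FPKM in VC20, 14.6, 12.4 and 4.77 FPKM in VC200, and 19.9, 14.3 and 14.6 FPKM in VC600. *Gb_07608*, of the same class, had 13, 15.9 and 8.50 FPKM in VC20, 7.33, 8.90 and 15.7 FPKM in VC200, and 25.8, 7.49 and 0.31 FPKM in VC600. A single low tree was thus seen in the youngest and in the oldest group as well. Near-identical members of this family can share reads, and values of single genes are uncertain for that reason.

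Receptor-like kinases, which sense signals at the cell surface, had a median SD in VC20, VC200 and VC600 of 0.25, 0.46 and 0.33 (113 genes), and 0, 21 (18.6%) and 3 (2.65%) of them had an SD of 1 or more, compared with 1.8%, 9.91% and 3.46% of all genes. The median spread between VC200A and VC200B was 0.20. *Gb_31673* had 2.36, 1.94 and 1.76 FPKM in VC20, 2.98, 2.76 and 43.6 FPKM in VC200, and 2.63, 2.40 and 3.15 FPKM in VC600. *Gb_40039*, annotated as FLS2, the receptor of bacterial flagellin in *Arabidopsis*, had 10.3, 4.37 and 6.31 FPKM in VC20, 1.33, 2.12 and 42.6 FPKM in VC200, and 0.40, 0.45 and 4.67 FPKM in VC600. VC200C was the high tree in both. Over the list, VC200C lay 1 or more above the mean of VC200A and VC200B for 19 genes and 1 or more below it for 16. Of all genes, 8.82% and 12.4% did. *Gb_05570* had its largest SD in VC600, with 2.35, 2.09 and 36.3 FPKM there.

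Genes annotated for ethylene signalling and its response factors had a median SD in VC20, VC200 and VC600 of 0.27, 0.72 and 0.39 (17 genes), and the largest SD fell in VC200 for 13 of them (76.5%), compared with 48.2% of all genes. Between VC200A and VC200B alone their median spread was 0.22. VC200C lay 1 or more above the mean of these 2 trees for 3 genes and 1 or more below it for 5, where 8.82% and 12.4% of all genes did. Like the heat shock list, these genes were found by protein name in sheets that mostly hold genes differing between the age groups. *Gb_12584*, annotated as ERF024, had 11.1 FPKM in VC200C and 0.36 to 1.23 FPKM elsewhere, and *Gb_03645*, annotated as ERF003, had 0.39 FPKM in VC200C and 4.06 to 23.1 FPKM elsewhere.

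Transport genes included single cases of wide spread. The cytokinin transporter homologue *Gb_38402*, annotated as ABC transporter G family member 14, had 29.1, 26.9 and 30.5 FPKM in VC20, 78.2, 52.1 and 2.80 FPKM in VC200, and 3.81, 9.91 and 10.2 FPKM in VC600. *Gb_40254*, annotated as the sugar transporter ERD6-like 6, had 7.02, 3.33 and 4.09 FPKM in VC20, 2.26, 6.01 and 102.2 FPKM in VC200, and 29.3, 25.9 and 8.89 FPKM in VC600. The 42 transporters as a list had a median SD in VC20, VC200 and VC600 of 0.30, 0.41 and 0.34, and 0.19 between VC200A and VC200B.

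The 34 autophagy genes had a median SD in VC20, VC200 and VC600 of 0.20, 0.26 and 0.24, close to the 0.23, 0.33 and 0.26 of all genes, and 0.10 between VC200A and VC200B. Only *Gb_08609*, annotated as the autophagy receptor NBR1, reached an SD of 1, with 29.4, 28.0 and 43.0 FPKM in VC20, 57.8, 55.9 and 8.42 FPKM in VC200, and 53.5, 55.0 and 35.9 FPKM in VC600. The 120 pentatricopeptide repeat genes, which act on organelle RNA, had a median SD in VC20, VC200 and VC600 of 0.15, 0.24 and 0.20. Their median spread was 0.09 between VC200A and VC200B. VC200C was the lowest of the 9 trees for 71 of these 120 genes, compared with 36.6% of all genes, although VC200C lay 1 or more below VC200A and VC200B for only 2 of them.

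**Figure D5:**
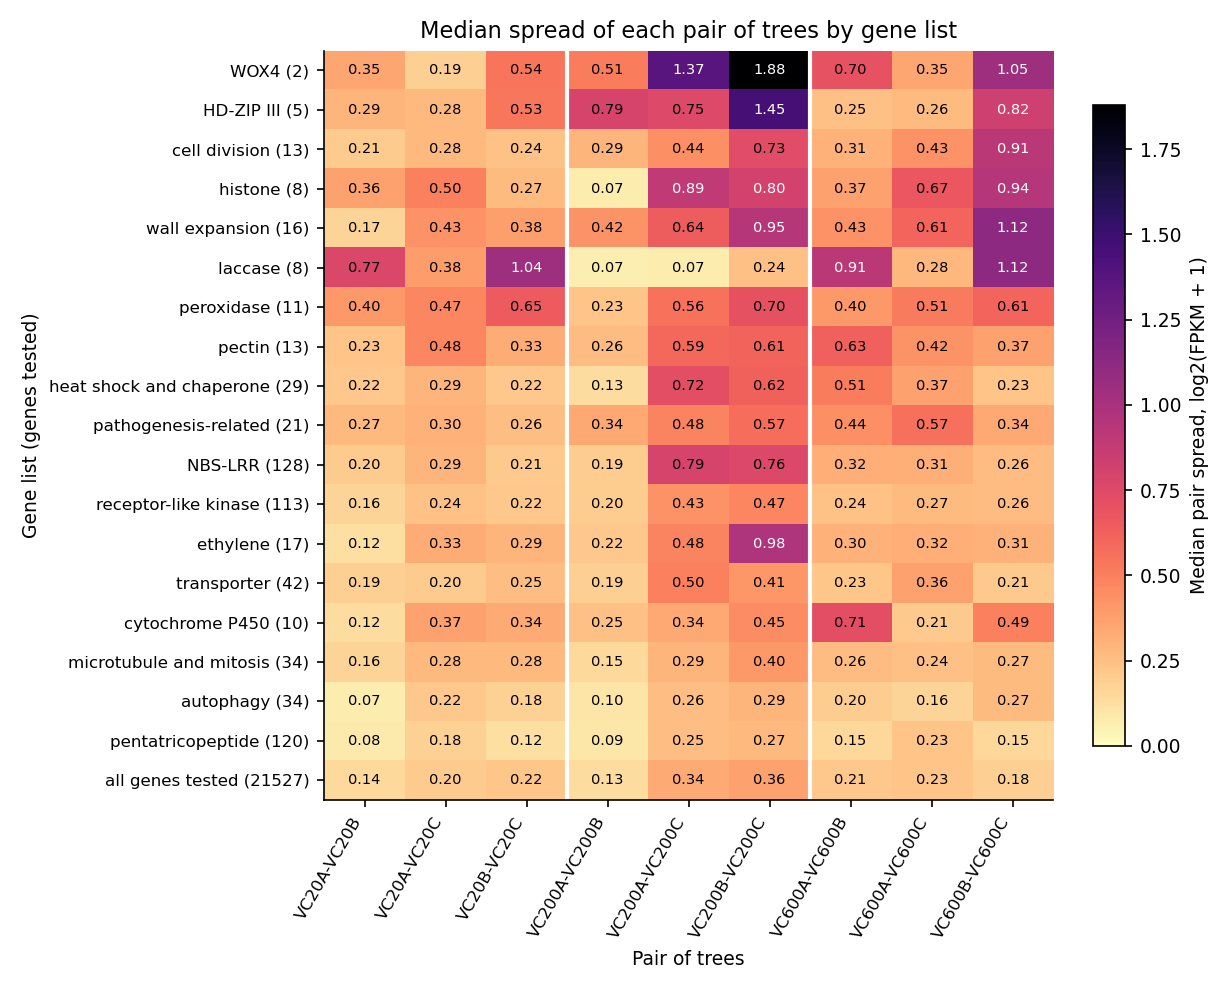
Median pair spread of 18 gene lists and of all genes in the 9 pairs of trees. Rows are lists, columns are pairs of trees of the same age group, and colour is the median over the genes of a list of the absolute difference of log2(FPKM + 1) divided by the square root of 2. Pairs with VC200C are dark for most lists, the pair VC200A and VC200B is dark for HD-ZIP III genes (0.79), and wall expansion genes are dark for VC600B and VC600C (1.12).

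Small RNA (sRNA) libraries of trees A and B of each group gave a second measure on the same trees, without VC200C. Of 526 entries with distinct counts, 281 had a mean of 10 or more CPM (counts scaled to the library total) over the 6 libraries. The median spread between trees A and B was 0.30 in VC20, 0.25 in VC200 and 0.40 in VC600. The corresponding values of the genes were 0.14, 0.13 and 0.21. A 2-fold difference or more was found for 49 entries (17.4%) in VC20, 45 (16%) in VC200 and 73 (26.0%) in VC600. For these 2 trees, the order of the groups was thus the same in genes and in sRNA entries, with 1 pair of trees in each group and hence no test.

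Single entries differed widely between trees A and B. Among conserved miRNAs, ath-miR172a, which targets AP2-type transcription factors in *Arabidopsis*, had 1921 and 9823 counts in VC20A and VC20B, 7735 and 17838 in VC200A and VC200B, and 2897 and 2553 in VC600A and VC600B. In contrast, ath-miR166a-3p, which targets HD-ZIP III genes, had a pair spread of 0.01 for VC20, 0.10 for VC200 and 0.10 for VC600. Entries of its family were not all alike. The pair spreads in the same order were 0.04, 0.06 and 0.09 for gma-miR166u, but 0.22, 0.61 and 0.38 for aly-miR165a-3p, which had 70 to 306 counts. The predicted entry novel_55 had 1712 and 209 counts in VC600A and VC600B, and novel_15 had 797 and 7380 counts in VC200A and VC200B, with totals of 1184091 to 1842055 counts per library.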

How the data were processed

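The data were 9 RNA-seq libraries of cambium (3 trees per age group) and 6 sRNA libraries of the A and B trees. As their methods state, the authors used HISAT to align the RNA-seq reads to the published genome, and they deposited FPKM values per gene with scaffold, strand, start, end and length. The submitters' processing notes instead list TopHat2 2.0.12, Cufflinks 2.1.1 and Bowtie, and the sources used here do not give the program that counted fragments. The authors deposited raw read counts of known and predicted miRNA entries for the sRNA libraries. The table of predicted miRNA targets and the degradome libraries were not used, and 0 columns of values were left unmatched to a sample.

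The SD of log2(FPKM + 1), with a pseudocount of 1, was computed over the 3 libraries of each group for genes with a mean FPKM of 1 or more. FPKM times length fell on whole numbers of fragments for 97.5% of values above 0 (tolerance 0.02), and the totals these imply were 15732414 to 18811767 fragments per library. The SD expected from counting was taken from fragments of 20886 genes. No p-value or interval here reaches beyond the sampled trees, and 3 trees a group give an SD with a wide error of its own. Among sRNA entries, those that shared the same counts in every library were kept as 1 entry, and counts were scaled to CPM.

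The study tested means and no spread. Spread was tested with limma 3.58.1 in R 4.3.3 on absolute deviations from the group mean, in 1 fit of the 9 libraries, with Benjamini-Hochberg adjustment over all genes tested. The fit was tested on simulated data, where it gave small p-values too often when the spread was equal in all groups. Tree distances were compared with an exact permutation test. Genes were named by a rule, the 8 with the largest SD in a group minus the larger SD of the other groups, the 8 such genes with a protein name, the same for genes variable in every group, up to 5 per comparison from the spread test, and up to 3 per list by their largest SD, with those that the study names. *Gb_17419*, *Gb_22329*, *Gb_13755* and the miRNA entries were chosen after their values were seen. The genes, lists and tests were chosen with earlier results of these data known. Lists came from protein names or sheets of the study's supplements, for which 1765 of the genes measured have a protein name. As most of those sheets list genes that differed between age groups in these libraries, shares of lists found by protein name are a description only.

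Alternatives were quantile normalization, centred library medians, a pseudocount of 0.1, other filters on low values, each library left out, other thresholds, other forms of the test, a coefficient of variation and a replicate block. Chosen after the data were seen were the F test, a mean of 1 FPKM in every group and, for genes variable in 1 group only, trees A and B alone. Python 3.11.15 with NumPy 2.4.6, pandas 2.3.3, SciPy 1.17.1, statsmodels 0.14.6 and matplotlib 3.10.9 was used for all other steps.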

Additional observations from a re-analysis of the deposited data

How the results depend on the processing

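Values are given for VC200 against VC20, VC600 against VC20 and VC600 against VC200, or for VC20, VC200 and VC600, in that order, and the cause of a change was not tested unless the setting itself removes samples or genes. Counts of genes with a different spread by limma were 1900, 167 and 1930. They were 0, 0 and 0 with squared deviations, with deviations from the group median and with only the 2 groups compared, where 5338, 3039 and 5502, then 241, 42 and 229, then 5081, 3807 and 4646 genes had an unadjusted p under 0.05. They were 3, 0 and 4 by the F test, 5286, 3452 and 5911 with no filter, 5272, 3177 and 5237 at an unadjusted p under 0.05, 2203, 236 and 2222 with a replicate block, and 85 for VC600 vs VC20 at a mean FPKM of 5 or more. Leaving out 1 library gave 13 to 3770, 0 to 510 and 17 to 3516 calls, in fits where both deviations of the reduced group are equal by construction. Larger and smaller spread were called for 0 and 208, 0 and 180 and 0 and 45 genes in VC200 vs VC20 without VC20A, VC20B and VC20C, against 1629 and 271 with all trees, and for 167 and 0, 447 and 0 and 339 and 0 genes in VC600 vs VC200 without VC600A, VC600B and VC600C, against 423 and 1507. Without VC200C the calls were 13, 0 and 17. Correlations of deviations between trees of the same letter ran from -0.228 to 0.258, and those between trees of different letters from -0.287 to 0.257. Whether trees of the same letter share anything was not tested. Ratios of median SD were 0.897, 1.5 and 1.67 with trees A and B only, and ranged over 0.676 to 1.91, 0.938 to 1.46 and 0.575 to 1.62 with 1 library left out. They crossed 1 without VC200C (0.676 and 1.62) and, for VC600 vs VC20, without VC20A (0.938) or VC600A (0.981). Differences in tree distance ranged over -0.0660 to 0.168, -0.0111 to 0.0678 and -0.151 to 0.0824, and changed sign without VC200C (-0.0660 and 0.0824), VC20A (-0.0111) or VC600A (-0.00783). Genes variable in 1 group only numbered 53, 838 and 97. The counts were 127, 71 and 408 with trees A and B only, 13, 465 and 32 at an SD of 1.5 or more, and 11, 383 and 28 with the others at 0.3 or less. At a mean FPKM of 5 or more they were 27, 519 and 58, and at 1 or more in every group 33 and 530 for VC20 and VC200. VC20 had 110 genes with counting noise subtracted and 95 with a pseudocount of 0.1. With 1 library left out they ranged over 42 to 116, 33 to 1161 and 106 to 233, and without VC200C they were 108, 33 and 233. With 3 trees a group, a difference in spread between ages was not detectable at the level of trees.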

Other observations

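Some gene groups outside the comparisons above also differed between trees of the same age. Of the 10 cytochrome P450 genes, which encode oxidising enzymes, 5 (50%) had their largest SD in VC600, compared with 28.9% of all genes. Their median spread between VC200A and VC200B was 0.25. Like the heat shock list, these genes were found by protein name in sheets that mostly hold genes differing between the age groups. *Gb_34420*, annotated as cytochrome P450 78A4, had 1.02, 0.94 and 0.60 FPKM in VC20, 151.1, 62.9 and 13.8 FPKM in VC200, and 16.5, 6.72 and 38.3 FPKM in VC600. *Gb_35270*, annotated as the linker histone H1, had 132.1, 120.2 and 88.5 FPKM in VC20, 287.8, 353.2 and 752.4 FPKM in VC200, and 942.5, 635.6 and 245.5 FPKM in VC600. The abscisic acid synthesis gene *Gb_19071*, annotated as NCED1, had 6.39, 6.09 and 3.85 FPKM in VC20, 58.3, 69.8 and 87.5 FPKM in VC200, and 70.0, 12 and 9.0 FPKM in VC600, so that VC600A lay within the range of VC200 while the other 2 trees of VC600 lay between VC20 and VC200.

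Green tissue markers were measured in every tree. The 2 chlorophyll a-b binding protein genes measured summed to 31.8, 31.3 and 22.9 FPKM in VC20, 38.4, 46.0 and 48.2 FPKM in VC200, and 58.2, 31.7 and 32.3 FPKM in VC600. The transposon-like entry *Novel00154* had 6.27, 1.55 and 0.89 FPKM in VC20, 0.064, 0.17 and 0.11 FPKM in VC200, and 1.47, 8.74 and 0.93 FPKM in VC600. It lies on scaffold10372, as does *Novel00152*, and VC20A and VC600B were the highest trees of their groups in both.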
